A study of Mus musculus with 24 samples.

Results

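Mysm1 and 9 related genes of histone H2A deubiquitination were followed in sorted mouse blood stem and progenitor cells. The 10 genes were taken by symbol from the rows of the count files (Mysm1, Brcc3, Bap1, Asxl1, Asxl2, Usp16, Usp21, Usp22, Usp3 and Usp44). They are 10 of the 23364 genes counted, and all 10 were among the 21456 genes with enough reads to be tested. The question was whether the related genes rise when Mysm1 is lost.

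Histone H2A carries a single ubiquitin at many silenced genes, where Polycomb ligases place it, and at DNA breaks, where other ligases do. Deubiquitinases remove it, and they come from separate protein families. Mysm1 and Brcc3 encode zinc-dependent JAMM proteases, Bap1 a cysteine protease of the ubiquitin carboxy-terminal hydrolase family, and the Usp genes cysteine proteases of the ubiquitin-specific protease family. Asxl1 and Asxl2 encode no enzyme but cofactors that Bap1 needs for its activity. Loss of Mysm1, Bap1 or Asxl1 is known to disturb blood formation in mice.

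All mice were C57BL/6, 8 to 12 weeks old, and cells of males and females were pooled. KO mice had both Mysm1 alleles floxed and carried CreERT2, a Cre recombinase that tamoxifen switches on, and were given tamoxifen, 0.15 mg/g a dose, in 8 doses spread over 16 days. Het mice had 1 floxed allele, CreERT2 and the same tamoxifen, so their contrast with KO holds the drug constant. Sham mice carried floxed Mysm1 and received corn oil alone, and the labels do not say whether they carried CreERT2. Tamoxifen acts on the whole animal, so cells outside the blood lineage can lose the gene too. Bone marrow cells without lineage markers that carried Kit, Sca-1 and CD150 but no Flt3 were sorted into HSC (stem cells, without CD34 and CD48), MPP1 (multipotent progenitors with CD34 alone) and MPP2 (progenitors with both). Each population had 3 KO, 3 Het and 2 Sham libraries, each from cells of several pooled mice, so p-values measure the spread between pools and not between mice.

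The 24 libraries held 18823971 to 53196624 counts and 15740 to 21150 detected genes, with the fewest genes in HSC KO replicate 1 and HSC Het replicate 2_3. Cd48 mRNA followed the sort, at 0 to 2.02 CPM in HSC and 13.8 to 56.9 CPM in MPP2, where CPM is the count scaled to a common depth by the TMM-adjusted library size. Cd34 lay at 44.1 to 106.3 CPM in HSC, 118.5 to 215.4 CPM in MPP1 and 51.5 to 271.8 CPM in MPP2, so MPP2 overlapped with HSC although its gate requires CD34. Flt3 mRNA stood at 15.3 to 24.8 CPM in HSC and 4.50 to 98.0 CPM in MPP2 although the gates excluded the protein. Ly6a, which encodes Sca-1, stood at 16.8 to 26.7 CPM in HSC and 0.825 to 8.48 CPM in MPP2, although both gates require the protein. In bulk libraries a lower value can mean fewer cells that express a gene or less RNA per cell, which cannot be told apart.

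Exon 3 of Mysm1 is the piece that Cre removes, and it is shown because it sets what the counts can and cannot test. Mysm1 lies on the minus strand of chr4:94608731-94645791 (mm9), and its longest coding transcript in GENCODE has 20 exons. Exon 3 spans chr4:94639609-94639679, is coding throughout and has 71 bases, which is 0.957% of the 7420 bases of the transcript. Its sequence on the coding strand is the following.
Mysm1 exon 3: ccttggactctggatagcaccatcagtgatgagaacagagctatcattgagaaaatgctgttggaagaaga
Because 71 leaves a remainder of 2 when divided by 3, joining exon 2 straight to exon 4 shifts the reading frame. The next line gives the last 20 bases of exon 2 followed by the start of exon 4, with the first in-frame stop codon in capitals.
Mysm1 exon 2 joined to exon 4: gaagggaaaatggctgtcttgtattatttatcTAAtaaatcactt
In this joined sequence the stop comes 12 bases after the junction, and 50 codons precede it, against 819 codons in the full reading frame. These are properties of the mm9 reference. Whether this transcript is made in KO cells was not analysed here, nor were counts per exon.

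Mysm1 mRNA counted over the whole gene did not pass the test in any population. In HSC the KO libraries stood at 96.3, 115.2 and 120.7 CPM, the Het libraries at 129.2, 137.6 and 109.1 CPM and the Sham libraries at 113.9 and 121.3 CPM. In MPP1 the values were 76.7, 106.6 and 119.2 CPM in KO, 115.3, 114.6 and 118.1 CPM in Het, and 119.7 and 119.2 CPM in Sham. In MPP2 they were 88.1, 92.6 and 102.4 CPM in KO, 104.5, 112.0 and 98.5 CPM in Het, and 107.9 and 109.5 CPM in Sham. KO and Het libraries overlapped in every population, with KO replicate 1 the lowest library of each. The log2 change of KO against Het averaged over the 3 populations was -0.18 ± 0.083 (approximate standard error; 95% interval -0.35 to -0.0084; edgeR quasi-likelihood test, Benjamini-Hochberg adjusted p = 0.216). On the authors' deposited normalized table the same comparison gave -0.34 and passed (limma, adjusted p = 0.0398). The labels state that loss of exon 3 was seen by genotyping and loss of the transcript by qRT-PCR in stem and progenitor cells. A total count over the gene does not show whether exon 3 is gone, since that exon holds so little of the transcript.

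Against Het, the only members of the family that passed the test were Usp44 and Brcc3, and both rose. Usp44 was called in MPP2, and Usp44 and Brcc3 were called in the average over populations. No member was called in HSC, where 0.615% of all genes tested were called, nor in MPP1, where 0.0559% were. In MPP2, 1 of 10 members was called against 0.415% of all genes, and in the average 2 of 10 were called against 5.73%. With so few calls per population a member that misses the threshold is not shown to be unchanged. The other 7 members, apart from Mysm1, had averaged log2 changes of -0.051 (Usp3) to 0.068 (Usp16), and all their 95% intervals lay between -0.26 and 0.28. The median averaged change was 0.049 over the members and -0.054 over all genes tested. The sign of the small changes rested on the scaling: 8 of 10 members lay above 0 with TMM, 5 with RLE size factors and 2 on the authors' deposited table, while Usp44 and Brcc3 lay above 0 in all 3.

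**Figure D1:**
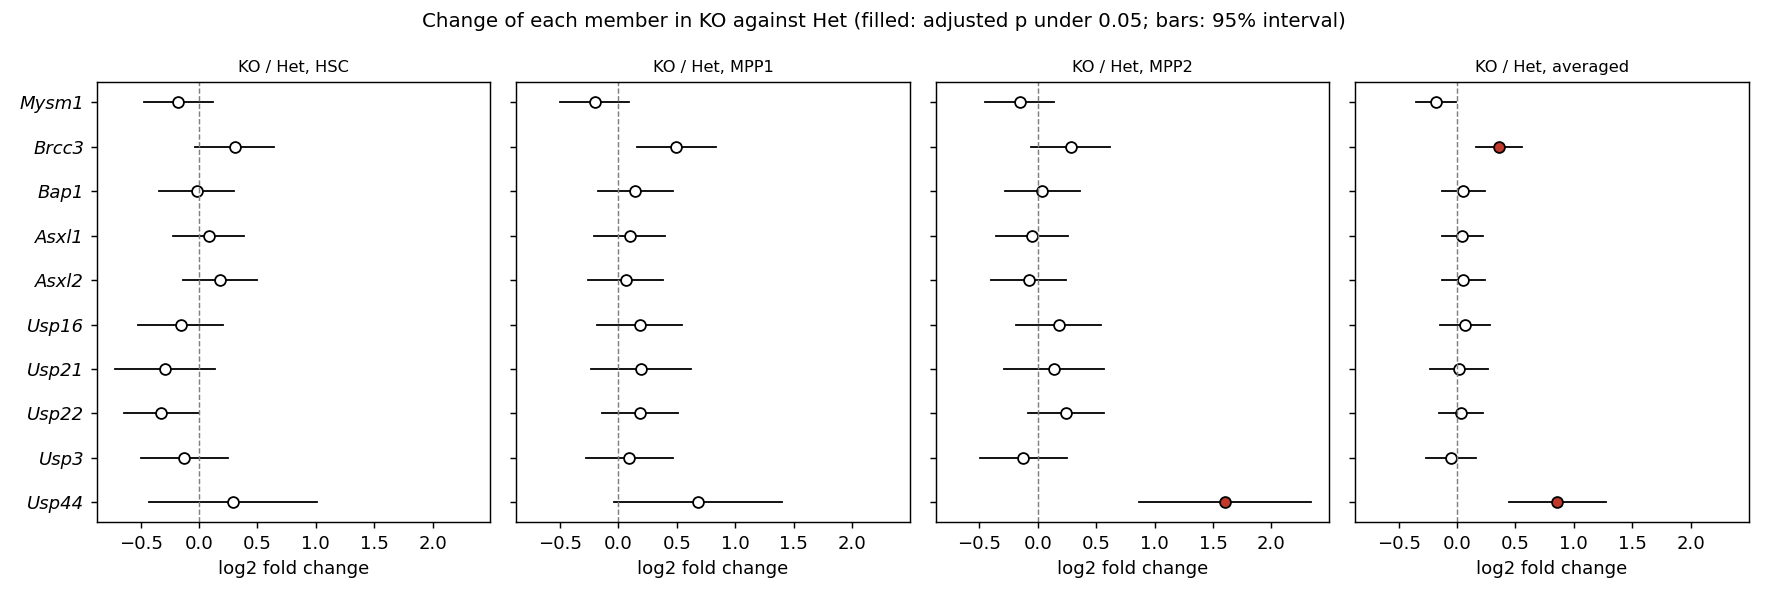
Log2 fold change of each member in KO against Het in HSC, MPP1, MPP2 and averaged over the 3 populations (x axis, same scale in all panels); points are estimates, bars are 95% intervals and filled points passed an adjusted p of 0.05. Usp44 is filled in MPP2 (1.60) and in the average (0.86), and Brcc3 in the average (0.36).

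Usp44 (chr10:93294300-93311269, plus strand, mm9) encodes a ubiquitin-specific protease known for its part in the spindle checkpoint and for acting on ubiquitin of histone H2B as well as H2A. In MPP2 it stood at 7.65, 8.51 and 10.1 CPM in KO, 2.07, 2.91 and 3.65 CPM in Het, and 1.62 and 1.57 CPM in Sham. Every KO library lay above every control library there, where KO and Het did not overlap for 14.7% of all genes. The log2 change against Het was 1.60 ± 0.36 (n = 3 and 3; 3.04-fold, 95% interval 1.82 to 5.07; edgeR, adjusted p = 0.0325). These levels came from 300 to 343 counts per KO library and 67 to 145 per Het library. The call did not survive leaving out any 1 of the 6 libraries: the change then lay between 1.41 (without Het replicate 1, adjusted p = 0.315) and 1.81 (without Het replicate 4, adjusted p = 0.0591). It was also lost when MPP2 was fitted alone (1.55, edgeR adjusted p = 0.0855).

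In MPP1 Usp44 stood at 12.3, 9.08 and 10.96 CPM in KO, 7.35, 7.06 and 5.71 CPM in Het, and 7.55 and 5.90 CPM in Sham. The KO libraries again did not overlap with either control, in a population where KO and Het did not overlap for 21.7% of all genes. The Usp44 log2 change of 0.68 ± 0.35 against Het did not pass (edgeR, adjusted p = 0.574). In HSC it stood at 11.8, 8.92 and 7.10 CPM in KO, 11.1, 6.85 and 4.88 CPM in Het, and 4.32 and 3.996 CPM in Sham. KO and Het overlapped there, since Het replicate 1 was as high as the KO libraries, and the change of 0.29 ± 0.35 did not pass (edgeR, adjusted p = 0.814). A test of whether the KO effect differs between populations gave a raw p of 0.0386 for Usp44 and an adjusted p of 1 (edgeR), so a difference between MPP2 and HSC is not shown. That test called 0% of all genes, with 975 at a raw p under 0.05, and DESeq2 called 35.

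Averaged over populations, Usp44 rose by 0.86 ± 0.20 on the log2 scale against Het (1.81-fold, 95% interval 1.36 to 2.42; edgeR, adjusted p = 0.0115). Against Sham it rose by 1.43 ± 0.24 (2.69-fold, 95% interval 1.92 to 3.78; edgeR, adjusted p = 0.000502). The Het group is in the first comparison and the Sham group in the second, and both share the KO libraries. Over all populations the 9 KO libraries ran from 7.10 to 12.3 CPM with a median of 9.08, and the 15 Het and Sham libraries from 1.57 to 11.1 CPM with a median of 4.88. The averaged test counts libraries of the same pool number in 3 populations as separate, although KO libraries of 1 number deviated from their group means together (correlation across 11036 genes 0.18 to 0.75). With the counts of the 3 populations summed to 1 sample for each genotype and number, the change was 0.82 against Het (adjusted p = 0.278) and 1.23 against Sham (adjusted p = 0.103), and neither passed. Without HSC KO replicate 1 and HSC Het replicate 2_3, the libraries with the fewest detected genes, the averaged change against Het was 0.76 and just missed the threshold (edgeR, adjusted p = 0.0501).

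**Figure D2:**
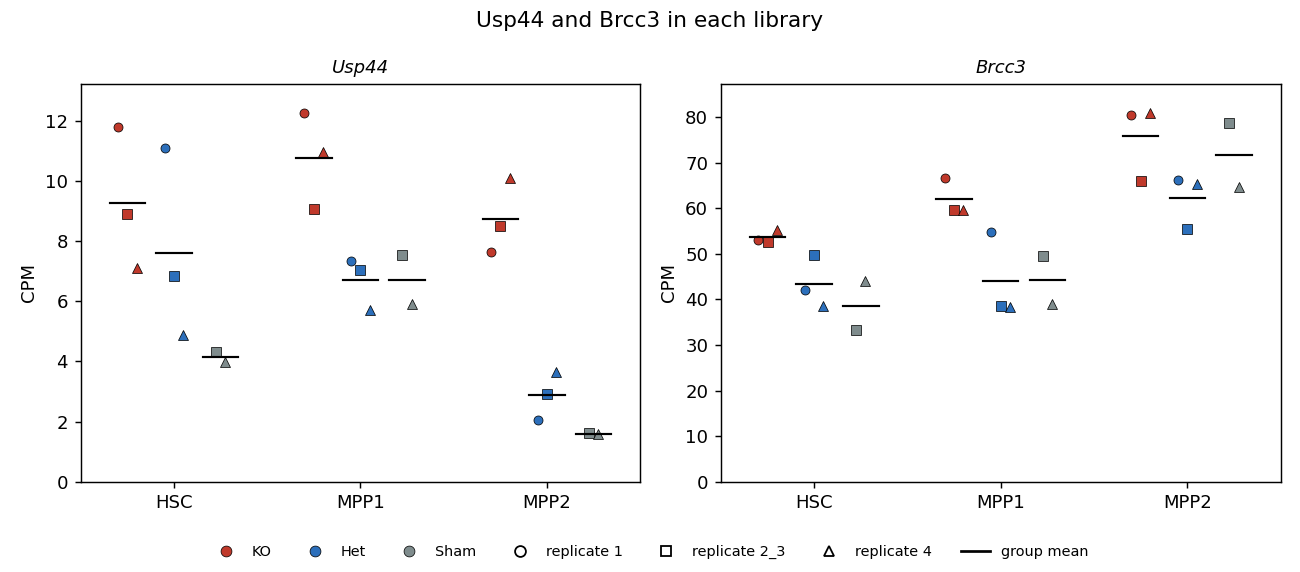
CPM of Usp44 and Brcc3 (y axes from 0) in every library of HSC, MPP1 and MPP2; colours give the genotype, symbols the replicate number and lines the group mean. In MPP2 the 3 KO libraries of Usp44 lie at 7.65 to 10.1 CPM and the 5 control libraries at 1.57 to 3.65 CPM.

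Brcc3 (chrX:72661967-72699340, plus strand, mm9) encodes the JAMM protease that cuts ubiquitin chains in the BRCA1-A complex, which acts at DNA breaks, and in BRISC, which acts in the cytoplasm. In HSC it stood at 53.1, 52.6 and 55.2 CPM in KO, 42.1, 49.7 and 38.6 CPM in Het, and 33.2 and 44.2 CPM in Sham. In MPP1 the values were 66.7, 59.7 and 59.6 CPM in KO, 54.9, 38.6 and 38.4 CPM in Het, and 49.5 and 38.9 CPM in Sham. In MPP2 they were 80.5, 66.0 and 80.9 CPM in KO, 66.3, 55.5 and 65.3 CPM in Het, and 78.8 and 64.6 CPM in Sham. KO and Het did not overlap for 11.6% of all genes in HSC and 21.7% in MPP1. For Brcc3, KO lay above both controls without overlap in HSC and MPP1, and overlapped with both in MPP2. The log2 changes against Het were 0.30 ± 0.17 in HSC, 0.50 ± 0.17 in MPP1 and 0.28 ± 0.17 in MPP2, none of which passed (edgeR, adjusted p = 0.405, 0.399 and 0.973).

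Averaged over populations, Brcc3 rose by 0.36 ± 0.096 on the log2 scale (1.28-fold, 95% interval 1.12 to 1.47; edgeR, adjusted p = 0.0229). Against Sham the change was 0.35 ± 0.11 and missed the threshold (edgeR, adjusted p = 0.0542). With counts summed over populations the change against Het was 0.38 (adjusted p = 0.361), and on the authors' deposited table it was 0.26 (limma, adjusted p = 0.0687). The call was also lost in 6 of 18 fits that left out 1 library (MPP1 KO 1, MPP1 Het 2_3, MPP1 Het 4, MPP2 KO 1, MPP2 KO 4 or MPP2 Het 2_3), with adjusted p up to 0.0751.

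Marker genes of dividing cells, of other cell types and of the sort were set beside these values. The summed level of 10 mitosis genes ran from 1289 to 3496 CPM in HSC KO against 476 to 1287 CPM in HSC Het, from 2110 to 3994 against 1041 to 3786 CPM in MPP1, and from 5377 to 7049 against 4761 to 6406 CPM in MPP2. Of these 10 genes, 1 was called higher against Het in HSC and 2 in the average, beside 0.615% and 5.73% of all genes (edgeR). All 10 lay above 0 against Het in each population and in the average. Their median log2 changes were 1.37 in HSC, 0.55 in MPP1, 0.35 in MPP2 and 0.73 in the average. Against Sham in the average 7 of the 10 were called higher, where 5.63% of all genes were called. All 10 lay above 0 there too, with a median log2 change of 1.12. Summed neutrophil markers lay at 122.8 to 171.2 CPM in MPP2 KO and 202.6 to 3518 CPM in MPP2 Het, and 0 of the 10 passed. Yet 0 of the 10 lay above 0 against Het in any population or in the average. The median log2 changes were -1.41 in HSC, -1.71 in MPP1, -2.55 in MPP2 and -1.89 in the average. Without MPP2 Het replicate 2_3, the library with 3518 CPM, the Usp44 change in MPP2 was 1.61 and was not called. The remaining MPP2 Het libraries, with summed neutrophil markers of 202.6 and 342.3 CPM, also lay above the MPP2 KO libraries. Of the markers of late erythroid cells 2 of 7 fell in the average over populations, and 0 of 6 B cell, 0 of 6 T and NK cell and 0 of 6 macrophage markers passed against Het. Of the 6 genes of surface proteins used in the sort, 0 passed against Het in any population or in the average. In MPP2 their log2 changes against Het ran from -1.08 to 1.26, with 4 of 6 above 0. In the average against Sham 2 of the 6 were called higher, beside 5.63% of all genes, with a median of 0.51. The part of all these genes in the Usp44 and Brcc3 values was not tested.

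Bap1 and its cofactors Asxl1 and Asxl2 form the Polycomb repressive deubiquitinase. None of the 3 passed against Het in any population or in the average, where their log2 changes were 0.054 ± 0.091 for Bap1, 0.044 ± 0.087 for Asxl1 and 0.054 ± 0.090 for Asxl2. In HSC, Bap1 stood at 80.1, 97.2 and 90.5 CPM in KO and at 64.3, 98.5 and 108.6 CPM in Het, so the KO libraries lay inside the range of Het. Asxl2 in MPP2 lay at 134.2, 128.6 and 134.5 CPM in KO, just below the 142.9, 135.4 and 141.1 CPM of Het. Those groups did not overlap, as for 14.7% of all genes in MPP2, and the change of -0.078 ± 0.16 did not pass (edgeR, adjusted p = 0.994). In Sham the same gene spread from 119.4 to 156.1 CPM.

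Among the ubiquitin-specific proteases other than Usp44, none passed against Het. Usp22 is the enzyme of the SAGA coactivator complex, which removes ubiquitin from H2B and H2A. In HSC it stood at 103.4, 78.8 and 100.2 CPM in KO and 89.9, 135.0 and 128.0 CPM in Het, a log2 change of -0.32 ± 0.16 (edgeR, adjusted p = 0.350). In MPP2 its KO libraries, at 105.9, 90.1 and 85.0 CPM, all lay above the Het libraries at 77.4, 83.0 and 77.3 CPM. KO and Het did not overlap for 14.7% of all genes there. The Usp22 change in MPP2 was 0.24 ± 0.16 (edgeR, adjusted p = 0.993). The changes in the 2 populations thus had opposite signs, and the test of a difference between populations gave a raw p of 0.0343 and an adjusted p of 1 (edgeR).

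Usp16, known for H2A deubiquitination in mitosis and for a role in stem cell renewal, had log2 changes of -0.16 in HSC, 0.18 in MPP1 and 0.18 in MPP2. Usp21, an H2A deubiquitinase linked to the start of transcription, stood in HSC at 16.4, 15.1 and 17.2 CPM in KO against 17.1, 21.7 and 20.9 CPM in Het and 25.3 and 22.8 CPM in Sham. Its change there of -0.29 ± 0.21 did not pass (edgeR, adjusted p = 0.560), and in MPP1 and MPP2 the change was 0.19 and 0.14. Usp3, which acts on ubiquitinated H2A in the DNA damage response, changed by -0.13, 0.095 and -0.12 in HSC, MPP1 and MPP2. KO and Het overlapped for Usp16, Usp21 and Usp3 in all 3 populations.

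**Figure D3:**
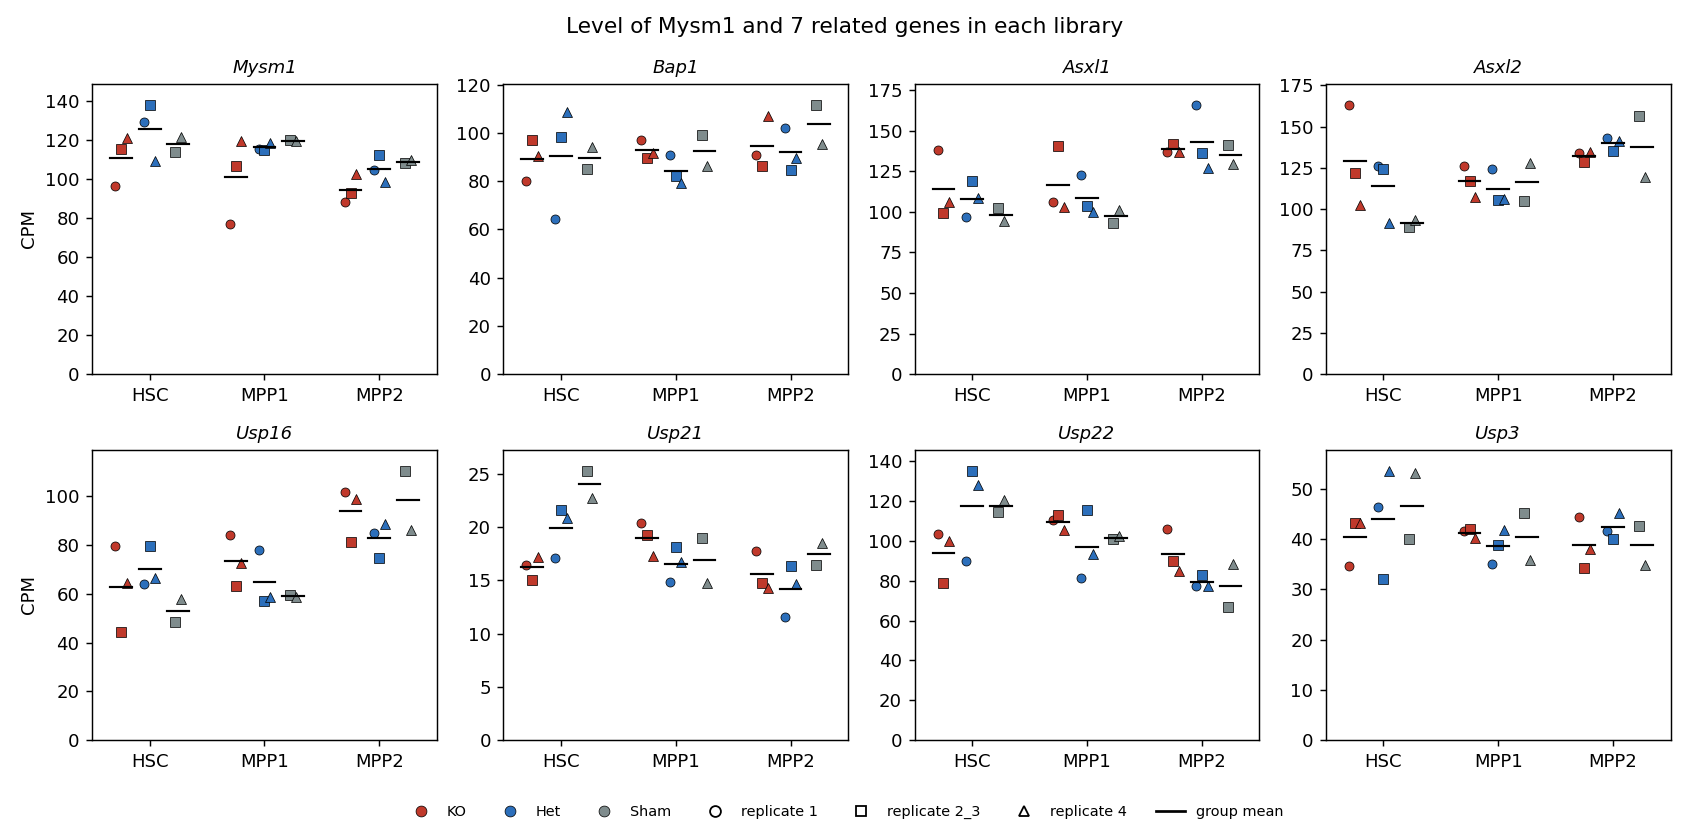
CPM of Mysm1, Bap1, Asxl1, Asxl2, Usp16, Usp21, Usp22 and Usp3 (y axes from 0) in every library of HSC, MPP1 and MPP2; colours give the genotype, symbols the replicate number and lines the group mean. KO and Het points overlap in every panel and population except Asxl2 and Usp22 in MPP2.

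Across the family, members whose KO libraries all lay on 1 side of Het were 1 of 10 in HSC (Brcc3 above), 2 in MPP1 (Brcc3 and Usp44 above) and 3 in MPP2 (Usp22 and Usp44 above, Asxl2 below). Over all genes tested the shares were 11.6% in HSC, 21.7% in MPP1 and 14.7% in MPP2.

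Against Sham averaged over populations, 1 of 10 members was called (Usp44), against 5.63% of all genes. Het against Sham compares mice that differ in tamoxifen and in 1 Mysm1 allele, and 0 of 10 members were called. That comparison called 0% of all genes with edgeR, where 891 genes had a raw p under 0.05, and DESeq2 called 17. Usp44 had a log2 difference of 0.57 ± 0.23 between Het and Sham (95% interval 0.095 to 1.05; edgeR, adjusted p = 1.00). The values behind it are the low Sham libraries of HSC, at 4.32 and 3.996 CPM, and of MPP2, at 1.62 and 1.57 CPM, which lay below all Het libraries of their population. In MPP1 Het and Sham overlapped. Mysm1 itself differed by -0.0002 ± 0.093 between Het and Sham (95% interval -0.19 to 0.19).

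In MPP2 against HSC, averaged over genotypes, 6 of 10 members were called against 32.2% of all genes: Brcc3, Usp16, Asxl1 and Asxl2 were higher and Usp22 and Usp44 lower in MPP2. The median of all genes in that comparison was -0.19, so a member at 0 lies above the typical gene. In MPP2 against MPP1, 5 of 10 were called against 25.3%, with Brcc3, Usp16 and Asxl1 higher and Usp22 and Usp44 lower, beside a median of all genes of -0.25. In MPP1 against HSC, 0 of 10 were called against 1.04%, and the members' log2 changes ran from -0.18 (Usp21) to 0.24 (Usp44).

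Brcc3 rose from a median of 46.9 CPM in HSC (33.2 to 55.2, n = 8) through 52.2 CPM in MPP1 (38.4 to 66.7) to 66.2 CPM in MPP2 (55.5 to 80.9). Every MPP2 library lay above every HSC library, and the log2 difference was 0.64 ± 0.10 (1.55-fold; edgeR, adjusted p = 1.16e-05). Usp16 had medians of 64.2 CPM in HSC (44.4 to 79.8), 61.4 CPM in MPP1 (57.1 to 83.9) and 87.5 CPM in MPP2 (74.6 to 110.3), a difference of 0.57 ± 0.11 between MPP2 and HSC (edgeR, adjusted p = 0.000135). In GENCODE, Usp16 shares 193 exonic bases with Cct8, a chaperonin subunit gene on the opposite strand. Usp16 has 9445 exonic bases there and a deposited length of 2919, so the overlap may lie outside the counted bases. Cct8 stood at 150.8 to 477.6 CPM and was higher in MPP2 than HSC by 0.81 ± 0.10 (edgeR, adjusted p = 3.21e-07). The strand setting of the authors' counting is not given in the sources used here, so reads in that overlap cannot be assigned with certainty.

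Asxl1 had a median of 104.3 CPM in HSC (94.3 to 137.9) and 137.0 CPM in MPP2 (127.3 to 165.9), a log2 difference of 0.38 ± 0.094 (edgeR, adjusted p = 0.00166). In GENCODE, Asxl1 shares 197 exonic bases with the noncoding gene 2500004C02Rik on the opposite strand, at 13.8 to 29.5 CPM. Asxl1 has 7431 exonic bases there and a deposited length of 6674, so the same doubts apply as for Usp16. Asxl2 had medians of 112.1 CPM in HSC (89.0 to 163.0) and 135.0 CPM in MPP2 (119.4 to 156.1), a difference of 0.31 ± 0.098 (edgeR, adjusted p = 0.0141). Their enzyme partner Bap1 differed by 0.11 ± 0.098 (95% interval -0.093 to 0.31) and was not called. On the authors' deposited table, whose median over all genes was -0.015, Asxl1 differed by 0.12 and Asxl2 by 0.062 and neither passed (limma, adjusted p = 0.236 and 0.607). Without MPP2 Sham replicate 2_3, Asxl2 stood at 0.24 and was not called (edgeR, adjusted p = 0.101).

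Usp22 fell from a median of 109.0 CPM in HSC (78.8 to 135.0) to 84.0 CPM in MPP2 (66.8 to 105.9), a log2 difference of -0.39 ± 0.099 (edgeR, adjusted p = 0.00216). Its close relative Usp27x, at 3.08 to 11.6 CPM, was also lower in MPP2, by -0.60 ± 0.23 (edgeR, adjusted p = 0.0440). Usp51, another relative at 0 to 4.46 CPM, went the other way by 1.38 ± 0.67 and was not called (edgeR, adjusted p = 0.121). How reads that match more than 1 of these relatives were counted was not analysed here. Against MPP1 the Usp22 difference was -0.30 ± 0.099 (edgeR, adjusted p = 0.0227), and the call was lost in 6 of 16 fits without 1 library, at -0.24 to -0.30 (MPP1 KO 1, MPP1 Het 2_3, both MPP1 Sham libraries, MPP2 KO 4 or MPP2 Sham 2_3).

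Usp44 was lower in MPP2 than in HSC by -0.95 ± 0.22 and than in MPP1 by -1.20 ± 0.22 on the log2 scale (edgeR, adjusted p = 0.00105 and 0.000148). The group means show where the difference lay: 9.28 ± 2.37 CPM in HSC and 8.76 ± 1.25 CPM in MPP2 among KO libraries (SD, n = 3), 7.61 ± 3.18 and 2.87 ± 0.789 CPM among Het (n = 3), and 4.16 ± 0.227 and 1.60 ± 0.0331 CPM among Sham (n = 2). On the authors' deposited table the difference from HSC was -0.35 and did not pass (limma, adjusted p = 0.136). Mysm1 had medians of 118.0 CPM in HSC, 116.7 CPM in MPP1 and 103.5 CPM in MPP2. Its log2 difference of -0.20 ± 0.090 between MPP2 and HSC was not called (edgeR, adjusted p = 0.0913) and lay -0.0066 from the median of all genes. With RLE size factors it was -0.24 (edgeR, adjusted p = 0.0405) and passed, beside a median of all genes that was also -0.24. On the authors' deposited table it was -0.45 (limma, adjusted p = 0.00127) and passed, beside a median of -0.015. Over all 24 alternatives Mysm1 was called in 6.

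**Figure D4:**
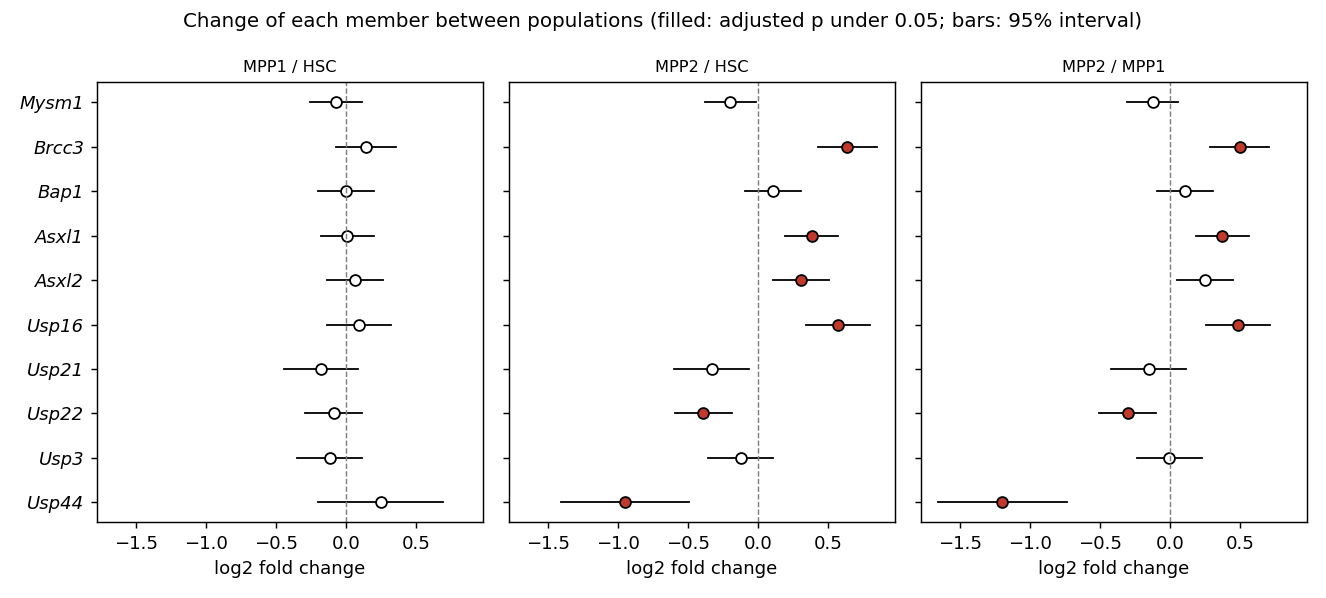
Log2 fold change of each member between populations, averaged over KO, Het and Sham (x axis, same scale in all panels); points are estimates, bars are 95% intervals and filled points passed an adjusted p of 0.05. No point is filled for MPP1 against HSC, and Brcc3 (0.64) and Usp44 (-0.95) are the outermost filled points for MPP2 against HSC.

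Levels of different genes were compared per kilobase of the gene length in the count files. Averaged over the 24 libraries the order was Bap1 (26.9 ± 3.06 CPM per kilobase, SD), Usp16 (25.2 ± 5.77), Usp22 (22.2 ± 3.94), Usp3 (18.7 ± 2.46), Asxl1 (17.8 ± 3.00), Mysm1 (14.9 ± 1.80), Usp21 (8.04 ± 1.41), Asxl2 (6.80 ± 1.07), Brcc3 (5.69 ± 1.42) and Usp44 (1.24 ± 0.586). The steps from Mysm1 to Usp21 and from Brcc3 to Usp44 exceeded the larger SD of the pair and held in all 24 libraries. All other neighbours lay within that spread. Usp44 was thus on average the least abundant member per length, also when the exonic bases of GENCODE were used instead, at 2.32 ± 1.10 CPM per kilobase. Usp21, the next above it with those lengths, stood higher than Usp44 in 20 of the 24 libraries. With those lengths Usp16 moved from the second place to the sixth, since it is 2919 bases long in the files and 9445 in the annotation. Usp3 moved from the fourth place to the eighth (6.02 ± 0.792 CPM per kilobase), with lengths of 2201 and 6848 bases, and Mysm1 from the sixth to the fourth (12.3 CPM per kilobase).

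Spread within groups was similar for 9 members, with a standard deviation of log2 CPM of 0.16 (Mysm1) to 0.23 (Usp16), and was 0.33 for Usp44. The group means spanned 0.26 for Usp3 and 0.30 for Bap1 on that scale, 0.98 for Brcc3 and 2.70 for Usp44, from MPP2 Sham to MPP1 KO.

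Genes that work with the family were counted from lists. Of 19 partner subunits of these enzymes, 0 passed in KO against Het in HSC, MPP1 or MPP2 and 1 rose in the average over populations, with a list median of 0.10 against -0.054 for all genes. That is 1 of 19 where 5.73% of all genes were called, a share near the background. That gene was Foxk2, a forkhead factor that binds Bap1, with a log2 change of 0.43 ± 0.10 (edgeR, adjusted p = 0.0122). Of 11 other histone deubiquitinases 0 passed in any of these comparisons, and their median in the average was 0.035. Of 10 other genes with a JAMM or MPN domain, the fold that Mysm1 and Brcc3 share, 2 rose in the average, with a list median of 0.19. They were Cops5, the catalytic subunit of the COP9 signalosome (0.42 ± 0.10, edgeR adjusted p = 0.0146), and Cops6, its MPN partner (0.43 ± 0.11, edgeR adjusted p = 0.0193).

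On the opposing side, 1 of 17 genes of H2A ubiquitin ligases rose in the average, with a list median of 0.065, again a share near the 5.73% of all genes. It was Dzip3, a ligase for H2A (0.33 ± 0.094, edgeR adjusted p = 0.0354). Of 5 readers of ubiquitinated H2A 0 passed, with a median of 0.21. Foxk2, Cops5, Cops6 and Dzip3 all lost their calls when counts were summed over populations (edgeR, adjusted p = 0.292 to 0.458) and on the authors' deposited table (limma, adjusted p = 0.0529 to 0.0872). Over all 26 alternatives Foxk2 was called in 23, Cops5 in 22, Cops6 in 20 and Dzip3 in 12.

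Between MPP2 and HSC, where 32.2% of all genes were called in either direction, each list held called genes. Among partner subunits 6 of 19 were higher in MPP2 and 1 lower, a share near that background. Shmt2, which joins BRISC, was higher by 0.83 ± 0.11, Hcfc1, which binds Bap1, by 0.74 ± 0.12, and Foxk2 by 0.68 ± 0.11 (edgeR, adjusted p = 2.91e-07, 6.61e-06 and 1.53e-05). Among other histone deubiquitinases 5 of 11 were higher and 1 lower, with Usp10 at 0.67 ± 0.11, Usp48 at 0.49 ± 0.090 and Usp49 at 0.71 ± 0.15. Among JAMM and MPN genes 5 of 10 were higher and 1 lower: the COP9 subunit gene Cops5 rose by 0.82 ± 0.11 and the proteasome lid gene Psmd7 by 0.78 ± 0.10, and Mpnd fell by 1.33 on the log2 scale (SE 0.24). All 10 mitosis genes were also higher in MPP2 than in HSC, with a median of 2.63, and 5 of 7 late erythroid markers were higher, with a median of 2.71. Of the neutrophil markers 2 of 10 were called higher, but only 4 of 10 lay above 0 and the median was -0.17. The part of these markers in the differences between MPP2 and HSC, for the lists and for the 10 members, was not tested.

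Among ligase genes 7 of 17 were higher in MPP2 than in HSC and 1 lower, beside the 32.2% of all genes. Brca1, whose product is an H2A ligase with Bard1, was higher by 2.02 ± 0.24, Trim37 by 0.69 ± 0.093 and Rnf8, which acts at DNA breaks, by 0.53 ± 0.096 (edgeR, adjusted p = 3.60e-06, 5.68e-07 and 4.37e-05). Among readers 2 of 5 were higher (Dnajc2 by 0.69 and Aebp2 by 0.37) and Trp53bp1, which reads the mark at DNA breaks, was lower, with a log2 difference of -0.37 ± 0.090 (edgeR, adjusted p = 0.00138). In MPP1 against HSC, 2 of 17 ligase genes were called, with Brca1 higher by 1.10 ± 0.23 and Rnf168 by 0.37 ± 0.092, and 0 genes of the other 4 lists of the pathway. Of 24 alternatives Brca1 was called in 15 and Rnf168 in 11.

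MPP2 against MPP1, where 25.3% of all genes were called, gave calls in all 5 lists. Of the partner subunits 4 of 19 were higher in MPP2 and 0 lower, a share below that of all genes, with Shmt2 at 0.64 ± 0.11, Hcfc1 at 0.54 ± 0.12 and Babam1, a subunit of both Brcc3 complexes, at 0.42 ± 0.092. Of the other histone deubiquitinases 4 of 11 were higher and 1 lower, with Usp48 at 0.47, Usp10 at 0.53 and Usp46 at 0.77. Of the JAMM and MPN genes 4 of 10 were higher and 1 lower, with Psmd7 at 0.69, Cops5 at 0.68 and Mpnd at -1.15. Of the ligase genes 5 of 17 were higher and 0 lower, a share near that of all genes, with Trim37 at 0.50, Kdm2b, which belongs to a Polycomb complex, at 0.32 and Rnf8 at 0.35. Of the readers 2 of 5 were higher (Dnajc2 at 0.47 and Aebp2 at 0.33) and Trp53bp1 was lower at -0.38. All 10 mitosis genes (median 1.40), 5 of 7 late erythroid markers (median 2.35) and 2 of 10 neutrophil markers were called higher in MPP2 here too. Only 4 of the 10 neutrophil markers lay above 0, with a median of -0.67.

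Over the 24 libraries, the genes whose log2 CPM followed that of Mysm1 most closely were Efha2 (Pearson r = 0.83), Suv420h1 (0.83), Unc13b (0.83), H2-T24 (0.82) and Ccdc126 (0.82), out of 11036 genes with a mean of at least 5 CPM. Within the family the Pearson correlation with Mysm1 was -0.57 for Brcc3, -0.50 for Usp16, -0.46 for Asxl1 and -0.40 for Asxl2. For the other 5 it lay between -0.19 and 0.17. Counted from the highest Pearson correlation among these genes, Brcc3 stood at place 8470, Usp16 at 7773, Asxl1 at 7366 and Asxl2 at 6907. Many genes outside the family were thus more negative than any member. By rank (Spearman) the order differed, with -0.70 for Asxl1, -0.64 for Brcc3, -0.59 for Usp16 and -0.55 for Asxl2. The other 5 then lay between -0.11 and 0.30. These values are descriptions over libraries that share populations, pools and depth.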

How the data were processed

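Libraries were rRNA-depleted and stranded, per the labels' protocols. The authors deposited raw counts per gene and library, with a gene length in bases as an other value beside them, made with Trimmomatic 0.33, TopHat2 2.0.9, Bowtie 1.0.0 and featureCounts on mm9, per the submitters' processing notes. A deposited table of a normalized signal for 12186 genes served for 1 alternative (limma on log2 of value plus 0.5). How that signal was normalized is not given in the sources used here.

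Counts were joined by symbol, filtered with filterByExpr (least count 10), scaled by TMM and fitted with edgeR 4.0.16 in R 4.3.3 as 9 group means with 15 residual degrees of freedom. Tests were two-sided quasi-likelihood F tests, adjusted by Benjamini-Hochberg over 21456 genes at a threshold of 0.05. Approximate standard errors were derived from each change and its F value. DESeq2 1.42.0, limma 3.58.1 and the other alternatives stand under the processing heading. The script was tested on simulated data. 0 columns were left unused. Positions come from GENCODE on mm9, whose build the counts share.

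The members, lists and tests were chosen with earlier results of these data known. All members were named in each comparison. List genes were named where called against Het, and up to 3 a list by adjusted p between populations. Likeness named the 5 highest Pearson correlations with Mysm1.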

Additional observations from a re-analysis of the deposited data

How the results depend on the processing

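Members were called in KO against Het in MPP2 in 1 case, and in 0 with MPP2 fitted alone and in each fit without 1 library (0 to 0). In the average over populations 2 members were called against Het, 0 with counts summed over populations, 1 without HSC KO replicate 1 and HSC Het replicate 2_3, where Usp44 stood at 0.76 (adjusted p = 0.0501), and 1 to 2 without 1 library. Against Sham 1 was called, 0 with counts summed and 1 to 2 without 1 library: Brcc3 was called without HSC Sham replicate 4 (0.42, adjusted p = 0.0304) and without MPP2 KO replicate 2_3 (0.38, adjusted p = 0.0435). The cause was not tested. Counts of members called in the other 7 comparisons stayed within 1.5 times in every alternative run, and no called change reversed.

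Replicate numbers are shared between KO and Het, but deviations of same-numbered libraries correlated at -0.26 to 0.45 and not every pair passed 0.1, so they were not taken as pairs. With a replicate block, Usp44 in MPP2 was 1.59 (adjusted p = 0.0293), and the members called were 1 in MPP2, 2 in the average and 1 against Sham. The block raised the genes called from 132 to 726 in HSC, from 12 to 35 in MPP1, from 1230 to 2047 in the average, from 224 to 598 in MPP1 against HSC and from 0 to 11 for the difference between populations.

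Counts of all genes called ranged widely over the alternatives: 4 to 726 in HSC, 0 to 74 in MPP1, 37 to 167 in MPP2, 78 to 2047 in the average against Het, 107 to 1560 against Sham, 0 to 17 for Het against Sham, 0 to 35 for the difference between populations and 41 to 598 for MPP1 against HSC. Of 1230 genes called in the average 927 were higher, 632 of 982 with RLE and 529 of 1019 on the authors' deposited table. Against Sham 961 of 1208 were higher, 605 of 883 with RLE and 649 of 1158 on the authors' deposited table.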
